A study of Mus musculus with 2 samples.

Results

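CH12.LX is an established mouse B-cell lymphoma line, and the long non-coding RNA genes that it expressed most strongly are described here. A gene was included when GENCODE annotation M21 gave it a long non-coding type and its level was 10 TPM or more in both libraries, TPM being a relative abundance per transcript length whose sum is equal in all libraries. The rule held for 64 of the 43346 annotated genes in the tables, and for 64 of their 5694 long non-coding genes. By type, 26 of 2777 lincRNA genes, 26 of 595 processed transcript genes, 11 of 2062 antisense genes and 1 of 90 bidirectional promoter genes were members. Of the long non-coding genes, 4281 (75.2%) had 0 counts in both libraries.

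The study holds 1 group, CH12.LX from mouse strain B10.H-2aH-4bp/Wts, labelled female and of unknown age, as 2 biological replicates from separate biosamples. The labels name no treatment and no other cell type, and they call the line an analog of the human B-lymphoblastoid line GM12878. They describe the assay both as total RNA sequencing and as poly(A)+ RNA, for RNA above 200 nt with ERCC spike-ins; the choice between them could not be made here. The libraries held 24469094 and 23586580 expected counts. All 7 B-cell markers listed were at 1 TPM or more in both libraries (summed level 3679 and 3456 TPM), and the 5 T-cell markers summed to 0.490 and 0.510 TPM, the 5 myeloid markers to 0.810 and 0.780 TPM and the 3 stromal markers to 0.400 and 0.420 TPM. Of the 3 erythroid markers, 2 reached 1 TPM, with a sum of 8.41 and 7.72 TPM.

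Long non-coding RNAs are transcripts that are often spliced and polyadenylated like messenger RNAs but are not known to encode a protein. Some act in the nucleus or cytoplasm as RNAs, some are mainly carriers of small RNAs in their introns or exons, and some accompany a neighbouring coding gene. Small nucleolar RNAs (snoRNAs) guide the chemical modification or processing of ribosomal RNA and are usually cut from introns, while microRNAs are cut from hairpins and repress messenger RNAs through a seed near their 5′ end. The members were chosen by their TPM in these same libraries, so their levels are a description.

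The 64 genes together held 0.461% and 0.469% of all expected counts (0.465% ± 0.0062, SD, n = 2) and 81.7% ± 0.31 of the counts on all long non-coding genes. Their summed level was 8113 and 8409 TPM. The mean level ran from 10.985 TPM for 2810403D21Rik to 2677 TPM for Gm10076, with a median of 39.3 TPM and quartiles of 22.4 and 89.5 TPM. There were 16 members at 100 TPM or more, 12 from 50 to under 100, 23 from 20 to under 50 and 13 under 20 TPM. Only 9 ranked among the 1000 most abundant of all genes. The 5 highest, Gm10076, AI662270, Gas5, 2410006H16Rik and Cct6a, held 58.4% ± 1.29 of the members' TPM. Gm10076 by itself held 32.4% ± 0.04 of the members' TPM but 7.93% ± 0.0779 of their counts, since its effective length was 161 and 162 nt.

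**Figure D1:**
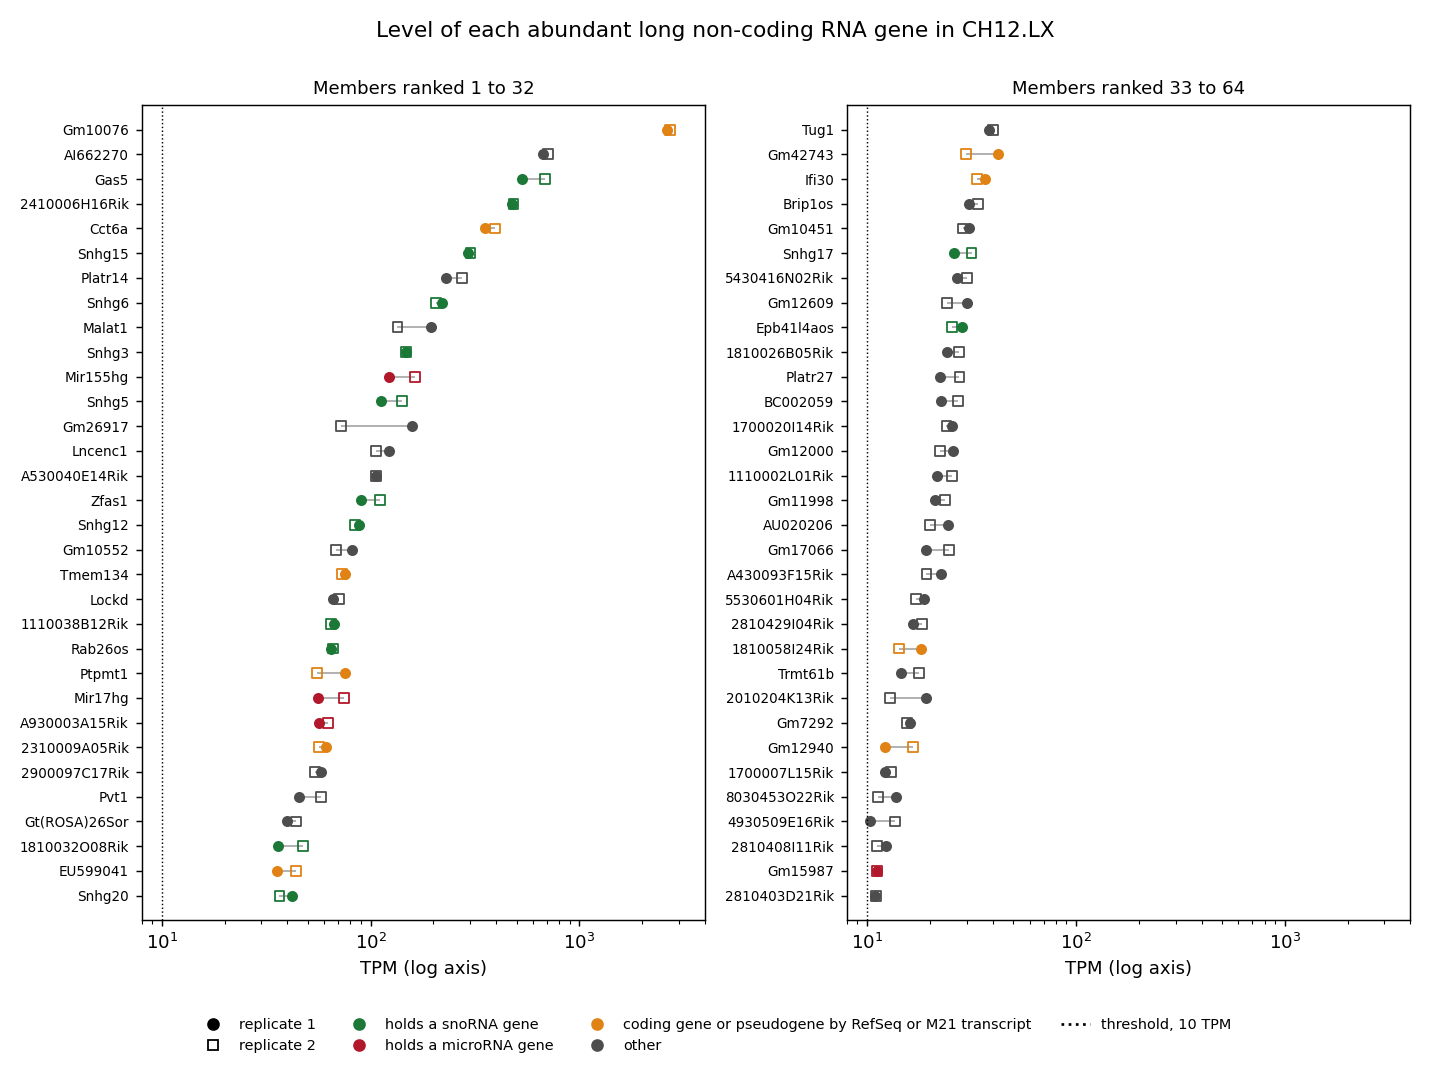
Level of each of the 64 members in TPM on a log axis, ranked by mean from top left to bottom right, with a filled circle for replicate 1, an open square for replicate 2 and the 10 TPM threshold as a dotted line. Colours mark genes that hold a snoRNA gene, genes that hold a microRNA gene and genes that RefSeq or M21 transcripts assign to a coding gene or pseudogene; Gm10076 stands alone at 2632 and 2723 TPM, and the widest gap between replicates is that of Gm26917.

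Host genes of snoRNAs made up a large class. On the same strand, 15 members (23.4%) hold 40 annotated snoRNA entries at 38 non-overlapping sites, against 6 of 211 long non-coding genes at 1 to 10 TPM (2.84%), 25 of 5419 below that (0.461%) and 164 of 6482 protein-coding genes at 10 TPM or more (2.53%). These are counts of annotation, with no test. The 15 hosts summed to 2573 and 2820 TPM, 32.6% ± 1.29 of the members' TPM.

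Gas5 (ENSMUSG00000053332.9), a growth-arrest transcript whose exons are known to be short-lived in growing cells, was the highest long non-coding host and carries snoRNAs in most of its introns: 10 entries at 9 sites between 161034422 and 161038539 on the plus strand of chromosome 1 (GRCm38, as for all positions here). Its level was 531 TPM in replicate 1 and 681 TPM in replicate 2, from 6939 and 8498 counts. 2410006H16Rik, on chromosome 11 from 62602877 to 62604807, carries Snord49b, Snord49a and Snord65, and stood at 477 and 483 TPM. The replicates thus differed little for 2410006H16Rik, while Gas5 was higher in replicate 2.

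Snhg15, the host of Snora9, was at 291 and 301 TPM, and Snhg6, the host of Snord87, at 221 and 206 TPM. Snhg3, which carries both copies of Snora73, was at 147.50 and 147.38 TPM, and Snhg5, the host of Snord50a and Snord50b, at 112 and 141 TPM. Zfas1, named as antisense RNA of Znfx1 and host of the Snord12 group, was at 90.1 and 111 TPM, and Snhg12, with 5 entries at 4 sites, at 87.7 and 83.9 TPM. Snhg5 and Zfas1 were higher in replicate 2, and Snhg6 and Snhg12 slightly lower.

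The lower hosts began with 1110038B12Rik, which carries Snord52 and Gm25744, at 66.8 and 64.6 TPM. Rab26os, the host of Snord60, followed at 64.4 and 66.2 TPM. 1810032O08Rik, which RefSeq names Snhg16 and which carries Snord1a, Snord1b and Snord1c, was at 36.2 and 47.3 TPM. Snhg20 was at 42.0 and 36.6 TPM, Snhg17, with 3 snoRNA genes, at 26.1 and 31.7 TPM, and Epb41l4aos at 28.4 and 25.6 TPM. Cct6a, at 352 and 394 TPM, also holds 2 snoRNA genes but is a coding gene in RefSeq and is described further on.

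The hosted snoRNAs themselves were nearly without counts. Of the 40 entries, 38 had a row in the tables, and 35 of these had 0 counts in both libraries. The rest were Snora73a with 8 and 0 counts, Snora73b with 4 and 0 counts and Snora16a with 1 and 1 count, so the sums were 13 and 1. Their lengths run from 60 to 205 nt with a median of 82 nt, and the labels give RNA above 200 nt as the input.

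Many known snoRNA hosts and ribosomal protein genes start transcription inside a run of pyrimidines, the terminal oligopyrimidine motif, which ties their translation to growth signals. The first bases around the RefSeq start (GRCm38.p6) are shown for 5 hosts with runs of 6 nt or more, as examples. Snhg17, whose run is as long as that of Gas5, is not shown. Each line holds 15 bases before the annotated start and 25 from it, 5′ to 3′ on the transcribed strand, and capitals mark the longest run of C and T that begins within 5 nt of the start. The windows are chr1:161035151-161035190 for Gas5, chr11:62602862-62602901 for 2410006H16Rik, chr4:132308663-132308702 for Snhg12, chr17:24528236-24528275 for Rab26os, all on the plus strand, and chr17:34952444-34952483 on the minus strand for 1110038B12Rik.
Gas5: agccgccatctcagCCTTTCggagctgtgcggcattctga
2410006H16Rik: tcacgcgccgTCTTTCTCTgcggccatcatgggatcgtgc
Snhg12: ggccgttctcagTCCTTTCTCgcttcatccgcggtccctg
Rab26os: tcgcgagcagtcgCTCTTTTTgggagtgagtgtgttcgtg
1110038B12Rik: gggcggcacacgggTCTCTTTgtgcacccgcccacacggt

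The run was 6 nt in Gas5, 9 nt in 2410006H16Rik and Snhg12, 8 nt in Rab26os and 7 nt in 1110038B12Rik. In the matched long non-coding hosts not shown it was 6 nt in Snhg17, 5 nt in Snhg3 and 4 nt in Snhg15 and 1810032O08Rik. It was 3 nt in Snhg5 and Zfas1 and 2 nt in Snhg20. A RefSeq start was matched for 48 of the 64 members. A run of 8 nt or more was found at 3 of 12 long non-coding hosts (25%) and at 0 of 35 other members. It was found at 22 of 90 starts of coding genes whose symbol begins with Rpl or Rps (24.4%) and at 1891 of all 32851 starts in the table (5.76%). For members only the start nearest that of the main GENCODE transcript was used, and for the other sets every start. The search read the transcribed strand only, and a match describes letters at an annotated start. That start lies 218 nt from the start of the main GENCODE transcript for Snhg12 and 4666 nt for Snhg17. Among the other members the distance was 86777 nt for Gm12609, 14149 nt for Gm12940 and 9536 nt for EU599041. It was 5719 nt for A530040E14Rik, 5208 nt for Malat1 and 1511 nt for Mir17hg. Such starts may not be those of the counted transcripts, so the contrast of hosts with other members is uncertain.

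The list of known snoRNA host lncRNAs held 31 symbols, 23 of which had a row, and 14 of these were members. These include Mir17hg and 1810026B05Rik, which hold no annotated snoRNA gene in M21, and leave out the hosts 1110038B12Rik and 1810032O08Rik, which the list does not name by those symbols. The other 9 were under 10 TPM in at least 1 library: Snhg14 was at 0.720 and 1.13 TPM, Snhg18 at 0.340 and 0.510 TPM, and Snhg9, Meg3 and Carmn were at 0. Snhg1, Snhg7, Snhg8 and Dancr were not analysed here. The snoRNP proteins that bind these RNAs were all above 10 TPM (9 of 9 measured, median 366 TPM), among them the methyltransferase Fbl at 112 and 98.3 TPM and the pseudouridine synthase Dkc1 at 200.30 and 224 TPM. From a list of 37 coding hosts of snoRNAs chosen by name, the member Cct6a among them, the 35 with a row were likewise above 10 TPM (median 736 TPM). That list does not cover all coding hosts: Snhg11, which M21 calls coding, is on the list of host lncRNAs and was at 0.02 and 0.01 TPM. Of 15 factors of nonsense-mediated decay, the pathway known to degrade several spliced host transcripts, 13 reached 10 TPM in both libraries (median of the 15, 20.4 TPM), Upf1 being at 19.7 and 22.7 TPM.

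**Figure D2:**
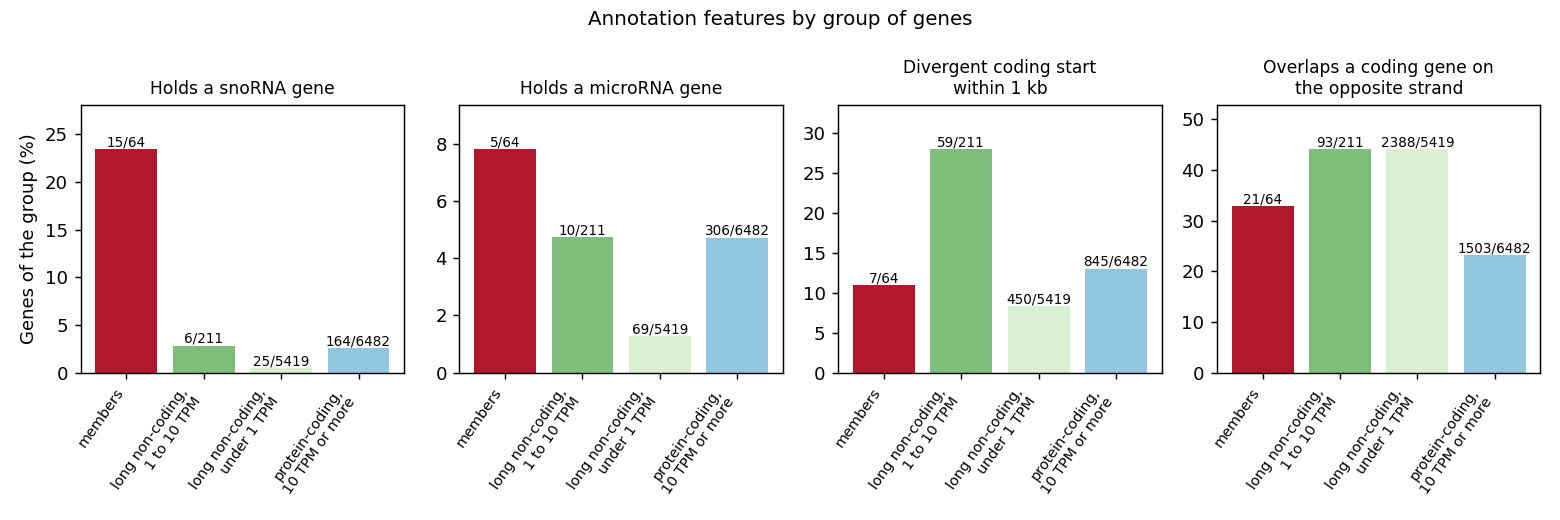
Share of genes with 4 annotation features, in percent, for the members, long non-coding genes at 1 to 10 TPM, long non-coding genes below that and protein-coding genes at 10 TPM or more, with the number of genes over the group's size above each bar and a separate axis in each panel. The members hold a snoRNA gene in 15 of 64 cases, and a divergent coding start within 1 kb in 7 of 64.

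Host genes of microRNAs numbered 5 (7.81%), with 10 microRNA genes, against 10 of 211 long non-coding genes at 1 to 10 TPM (4.74%) and 306 of 6482 protein-coding genes at 10 TPM or more (4.72%). For each microRNA gene of the 2 well-known hosts, 1 mature arm is shown from RefSeq (GRCm38.p6), and other arms are left out. The seed, bases 2 to 8, is in capitals, because it decides which messenger RNAs a microRNA can pair with.
mmu-miR-155-5p: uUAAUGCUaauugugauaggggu
mmu-miR-17-5p: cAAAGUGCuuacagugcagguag
mmu-miR-20a-5p: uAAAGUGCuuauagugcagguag
mmu-miR-18a-5p: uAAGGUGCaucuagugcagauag
mmu-miR-19a-3p: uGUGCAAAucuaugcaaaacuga
mmu-miR-19b-3p: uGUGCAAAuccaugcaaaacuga
mmu-miR-92a-3p: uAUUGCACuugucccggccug

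Mir155hg (ENSMUSG00000097418.3), also called Bic, carries Mir155 on chromosome 16 (gene from 84703167 to 84715245, plus strand), and miR-155 is known for its part in B-cell responses and lymphoma. The host was at 122 TPM in replicate 1 and 162 TPM in replicate 2, from 2655 and 3392 counts. Its 1264-nt transcript held 98.4% and 100% of the gene's TPM.

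Mir17hg (ENSMUSG00000089726.2) is the primary transcript of the miR-17 to miR-92 cluster, a target of Myc that is amplified in some B-cell lymphomas, and it carries 6 microRNA genes within chromosome 14 from 115043671 to 115044506. It was at 55.8 and 74.6 TPM, from 3866 and 4954 counts. Both of these hosts were higher in replicate 2, by 1.33-fold for Mir155hg and 1.34-fold for Mir17hg. Among the printed arms of the cluster, miR-17-5p and miR-20a-5p share the seed AAAGUGC, and miR-19a-3p and miR-19b-3p share GUGCAAA. The seed AAGGUGC of miR-18a-5p and AUUGCAC of miR-92a-3p were each found in 1 arm.

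The other hosts were A930003A15Rik, which carries Gm27883, at 56.7 and 62.8 TPM, Snhg20, which carries Mir6516, and Gm15987, which carries Mir7649, at 11.20 and 11.15 TPM. In Snhg20, Mir6516 (117077348 to 117077457) overlaps the snoRNA entry Gm26083 (117077243 to 117077435), so that locus is counted in both classes of host. All 9 microRNA genes with a row had 0 counts in both libraries, so the tables give the host transcript and not the microRNA. Of 16 listed microRNA host lncRNAs, 3 were members: Mir155hg, Mir17hg and Pvt1, the last with no microRNA gene by the overlap used here. Dleu2, the host of miR-15a and miR-16-1, fell just outside with 9.83 and 11.41 TPM, Mir142hg was at 5.09 and 2.11 TPM and Mir22hg at 2.89 and 3.08 TPM.

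Malat1 (ENSMUSG00000092341.2) is a long nuclear RNA of speckles whose 3′ end is not polyadenylated in the usual way but is protected by a folded structure built from U-rich stretches and an encoded A-rich tract. The stretch around that tract is shown from the 6983-nt transcript Malat1-201 (chromosome 19, gene from 5795690 to 5802672, minus strand), because the tract takes the place of the usual poly(A) tail. Capitals mark a run of A followed by GCAAA within the tract, at transcript positions 6674 to 6690. The annotated transcript runs on past the printed stretch to position 6983.
Malat1-201: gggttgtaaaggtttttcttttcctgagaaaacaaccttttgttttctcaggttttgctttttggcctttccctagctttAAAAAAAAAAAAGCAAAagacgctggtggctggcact

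Malat1 was at 194 TPM in replicate 1 and 134 TPM in replicate 2, from 9863 and 7965 counts. Its transcripts did not differ alike. The 6983-nt transcript held 89.9% and 92.6% of the gene's counts and stood at 62.8 and 54.4 TPM, while the 556-nt Malat1-202 held 6.38% and 4.54% of the counts and stood at 90.4 and 54.0 TPM. The gene's deposited effective length, an average over its transcripts, rose from 2435 to 2954 nt. The gene-level TPM sums over transcripts, the short ones with few reads included, and the ratio of the replicates was 1.44-fold for the gene, 1.15-fold for the long transcript and 1.67-fold for Malat1-202.

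Among other RNAs with known roles of their own, Tug1 was at 38.4 and 40.2 TPM, with its 4720-nt transcript holding 58.3% and 58.0% of its counts. 2900097C17Rik, named Norad in RefSeq and known to bind Pumilio proteins, was at 58.0 and 53.9 TPM. 1700020I14Rik, named Oip5os1 in RefSeq and also known as Cyrano, directs decay of miR-7 and was at 25.4 and 24.0 TPM, and its 8300-nt transcript was at 12.13 TPM in both libraries. These 3 differed little between the replicates.

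Pvt1, first described at plasmacytoma translocations and lying 47612 nt from Myc, was at 45.5 and 58.1 TPM, and Myc was at 36.9 and 28.3 TPM. 1810026B05Rik, named Chaserr in RefSeq and known to act on its neighbour Chd2, was at 24.2 and 27.5 TPM, with Chd2 at 11.2 and 9.16 TPM. Lockd, which lies 3579 nt from the cell-cycle inhibitor gene Cdkn1b, was at 66.3 and 70.3 TPM, and Cdkn1b at 18.06 and 17.95 TPM. In each of these pairs the long non-coding gene had the higher TPM in both libraries.

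Gm12609, an entry on chromosome 4 that RefSeq names Gm12610, was at 30.2 and 24.1 TPM from 244 and 187 counts. Its nearest coding gene, Cdkn2b at 70918 nt, was at 0 in both libraries.

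AI662270 (ENSMUSG00000087107.3) was the second most abundant member at 671 and 703 TPM, from 13831 and 14148 counts, and had the most counts of all members. It lies on chromosome 11 from 83223576 to 83226604, on the plus strand, and its 1428-nt transcript held 90.8% and 91.6% of its counts. Platr14 was at 231 and 274 TPM, and Lncenc1, described in embryonic stem cells, at 123 and 106 TPM. The replicates differed in opposite directions for Platr14 and Lncenc1. Gt(ROSA)26Sor, the transcript of the locus widely used for transgenes, was at 39.8 and 43.7 TPM.

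Some members at or near genes known in lymphoid cells are given next as examples chosen after their values were seen, with no count over all members. Gm12000 overlaps Ikzf1, which encodes the lymphoid transcription factor Ikaros, on the opposite strand, and was at 25.9 and 22.4 TPM beside 25.4 and 21.3 TPM for Ikzf1. A430093F15Rik lies 1945 nt from Cd5, which encodes a surface receptor of T cells and B-1 cells, and was at 22.6 and 19.3 TPM beside 13.2 and 15.4 TPM for Cd5. Gm15987, at 11.20 and 11.15 TPM, overlaps the lectin gene Clec2g, which was at 112 and 97.5 TPM. In a region of chromosome 1 with Sp140-related genes, A530040E14Rik was at 107 and 106 TPM opposite C130026I21Rik at 408 and 400 TPM, and Gm10552 at 81.4 and 68.3 TPM opposite Sp140, a nuclear body protein of B cells, at 152 and 161 TPM. The accompanying text of the deposited libraries lists signal tracks for each strand, but whether the counting used strand is not given in the sources used here, so the levels of overlapping pairs are uncertain.

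Over all members, 21 (32.8%) overlap a coding gene on the opposite strand and 7 (10.9%) share a divergent start within 1 kb, 25 in all. Among long non-coding genes at 1 to 10 TPM these were 93 of 211 (44.1%) and 59 of 211 (28.0%). Below that they were 44.1% and 8.30%, and among coding genes at 10 TPM or more 1503 and 845 of 6482. Rab26os starts opposite Traf7, which was at 85.7 ± 2.14 TPM, Gt(ROSA)26Sor opposite Setd5 at 48.1 ± 3.93 TPM and Brip1os, itself at 30.8 and 34.0 TPM, opposite the helicase gene Brip1 at 21.5 ± 3.29 TPM. Such partners were not always expressed: Rab26, which Rab26os also overlaps, was at 0.175 ± 0.148 TPM and Mcmdc2, which Snhg6 overlaps, at 0. The nearest coding gene was at 10 TPM or more for 31 of 63 members (49.2%), for 96 of 208 long non-coding genes at 1 to 10 TPM (46.2%), for 1351 of 5380 below that (25.1%) and for 2776 of 6342 coding genes at 10 TPM or more (43.8%).

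Members had a median of 4 exons in their transcript with the most exons and a median longest transcript of 2002.5 nt. The same medians were 3 exons and 1541 nt for long non-coding genes at 1 to 10 TPM, and 9 exons and 3066 nt for coding genes at 10 TPM or more.

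The long non-coding label was not shared by every source. RefSeq (GRCm38.p6) calls 49 members lncRNA, 8 protein-coding and 1 a pseudogene. For 6 no overlapping RefSeq entry had the same name or synonym. With Gm42743, whose main transcript M21 assigns to a coding histone gene, 10 members are thus assigned to a coding gene or pseudogene by another source. Gm26917, Gm10552, Gm12000, Gm17066 and Gm7292 had no RefSeq match by name, so the type used here is that of M21 only. RefSeq entries with other names at these places were not considered. The 10 held 41.0% ± 0.187 of the members' TPM and 21.2% ± 0.432 of their counts, and the other 54 had a median of 35.8 TPM.

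Most of that TPM share was Gm10076 (ENSMUSG00000060143.6), a gene of 1 exon on chromosome 14 from 105681828 to 105682211, which RefSeq calls a pseudogene. It was at 2632 and 2723 TPM, from 8872 and 8837 counts. Its transcript matches Rpl41, the gene of a very small ribosomal protein, at 99.478% over 383 of its 384 nt with 2 mismatches and no gap, and Rpl41 was at 1955 ± 179 TPM. The differences are C317T and G424A, with the Rpl41 base first, then the position counted from 1 at the 5′ end of the Rpl41 transcript, then the Gm10076 base. They are shown in capitals within 21-nt windows, since the transcripts differ only there within the matched stretch.
Gm10076, first: taagccagccTgtgcacctac
Rpl41, first: taagccagccCgtgcacctac
Gm10076, last: gacctggaacAtcacctcgcc
Rpl41, last: gacctggaacGtcacctcgcc

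The division of reads between Gm10076 and Rpl41 rests on the authors' estimate. Its deposited posterior SD was small, 0.054% and 0.048% of the Gm10076 count, and no other measurement of the division was used here. Other members with a near copy were Gm10552, whose 372-nt transcript is 100% identical to A530040E14Rik, and 2900097C17Rik, 99.2% identical to Gm7292 over 2537 nt. The search used M21 sequences, which can differ from the counted transcripts. For 2900097C17Rik the M21 sequence has 4915 nt and the counted transcript 1149 nt, so the match describes the M21 sequence. In all, 6 members had a match of 90% identity or more over at least 50% of the M21 sequence of their main transcript. EU599041 was among them, with zinc-finger genes. For 54 members the counts were whole in both libraries, and for 0 did the deposited posterior SD exceed 10% of the count in both. Gm10552 had the largest, 7.77% and 9.25%.

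The members that RefSeq calls coding were led by Cct6a, a subunit of the cytosolic chaperonin, at 352 and 394 TPM. Tmem134 was at 75.5 and 73.1 TPM, Ptpmt1, a mitochondrial phosphatase, at 75.4 and 55.1 TPM and Ifi30, a lysosomal thiol reductase of antigen processing, at 36.8 and 33.6 TPM. Genes of very short proteins were among them: 2310009A05Rik, named Pigbos1 in RefSeq, was at 61.2 and 56.4 TPM, and 1810058I24Rik, also known as Stmp1, at 18.1 and 14.3 TPM. Gm42743 was at 42.2 and 29.7 TPM, of which the histone H2B transcript Hist2h2bb-201 held 93.5% ± 1.23.

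Transcript usage varied widely. The tables list several transcripts for 48 members and 1 for 16, and of the 48, 41 had the same dominant transcript in both libraries. The dominant transcript held a median of 65.7% of the gene's TPM. It held 80% or more in both libraries in 16 of the 48 and 50% or less in both in 15.

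Gas5 was the most divided, with 25 transcripts of which the highest held 18.7% and 18.0%. In Snhg3 a 437-nt transcript held 90.14% and 89.99%. Zfas1 changed its dominant transcript: a 737-nt transcript held 48.6% in replicate 1 and 0% in replicate 2, and the 738-nt Zfas1-205 held 0.320% and 43.2%. By posterior mean the 737-nt transcript held 27.7% and 6.61%, a smaller gap. These are transcripts of nearly equal length, and the gene's own level was 90.1 and 111 TPM.

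**Figure D3:**
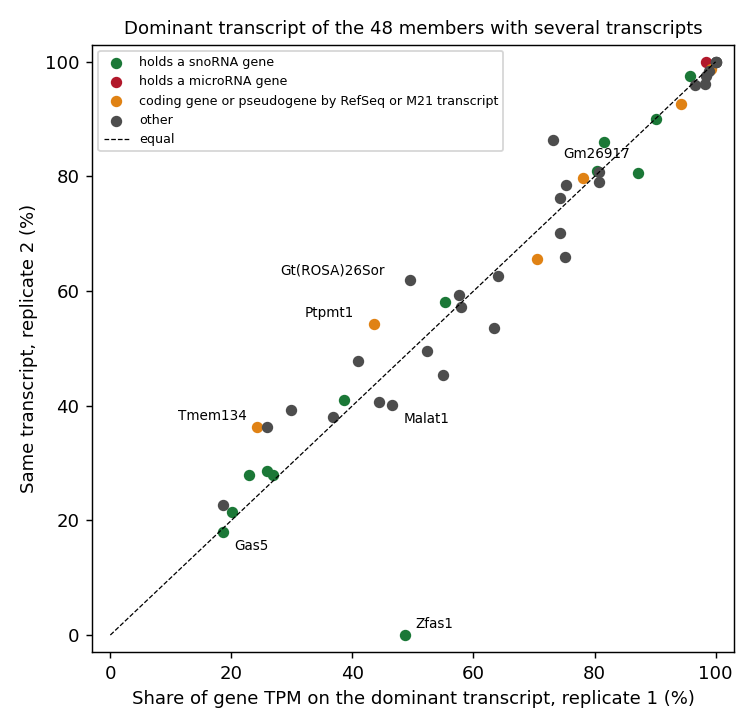
Share of the gene's TPM on the dominant transcript in replicate 1 (horizontal, percent) against the same transcript's share in replicate 2 (vertical, percent) for the 48 members with several transcripts, the dominant one being that with the higher mean share; the dashed line marks equal shares. Zfas1 lies on the bottom axis at 48.6% against 0%, farther from the line than any other point.

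Between the replicates, 1 of 64 members differed by more than 1.5-fold on the log2(TPM + 0.5) scale, against 2.69% of the 11661 genes tested. Members had to reach 10 TPM in both of these libraries, which left out genes such as Gm42418 at 20.4 and 8.12 TPM. Tested genes had no such rule, so these figures cannot show whether members differed less often. Among 4556 other tested genes within the middle of the members' range of mean count, 54 were past 1.5-fold. Tested genes had a mean of 20 or more expected counts, and differences are replicate 2 minus replicate 1. 2010204K13Rik sat at the threshold: its TPM of 19.3 and 12.8 differed 1.501-fold without the 0.5 added, and it was not counted on the scale used. That 1 member was lower in replicate 2, as were 1.84% of tested genes, and 0 members were higher, as were 0.858%. With 1 library on each side this compares the libraries and carries no test. The gene was Gm26917, at 157.85 and 72.2 TPM from 8064 and 4013 counts, a difference of -1.12 on the log2(TPM + 0.5) scale. The ratio of the TPM values themselves was 2.19-fold, lower in replicate 2. It was past 2-fold as well, as were 0.42% of all tested genes, 0.283% lower and 0.137% higher in replicate 2.

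Gm26917 (ENSMUSG00000097971.3) lies on chromosome 17 from 39843013 to 39846341, on the plus strand, in a region known to carry ribosomal RNA sequence. Both of its transcripts were lower in replicate 2, the 3329-nt one at 115 and 62.4 TPM and the 869-nt one at 42.5 and 9.83 TPM. Other RNAs were lower in replicate 2 too: Gm42418 was at 20.4 and 8.12 TPM, Rn7sk, the RNA that holds the elongation factor P-TEFb inactive, at 1258 and 490 TPM, and Rpph1, the RNA of ribonuclease P, at 561 and 356 TPM. Of 5 tested RNAs in this list of ribosomal and structural RNAs, which holds Gm26917 too, 4 were lower in replicate 2 by more than 1.5-fold. Rmrp, at 428 and 296 TPM, was the exception. Their part in the difference of Gm26917 was not tested.

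The median difference of the members was 0.03 on the log2 scale, with 34 higher and 30 lower in replicate 2, beside -0.0022 for all tested genes. Their median absolute difference was 0.173, against 0.135 for all tested genes and 0.125 for the 4556 other genes of similar mean count. The 15 snoRNA hosts had a median of 0.04 and none past 1.5-fold. The largest differences after Gm26917 were -0.57 for 2010204K13Rik, from 128 and 82 counts, -0.53 for Malat1 and -0.50 for Gm42743. On the other side stood Gm12940 at 0.43, Mir17hg and Mir155hg at 0.41 each, and 4930509E16Rik and the snoRNA host 1810032O08Rik at 0.38 each. Gm17066 and Gas5 followed at 0.36 each. Gm12940 is matched in RefSeq to the coding gene Sfpq, which has its own row at 112 and 152 TPM, a difference of 0.44.

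**Figure D4:**
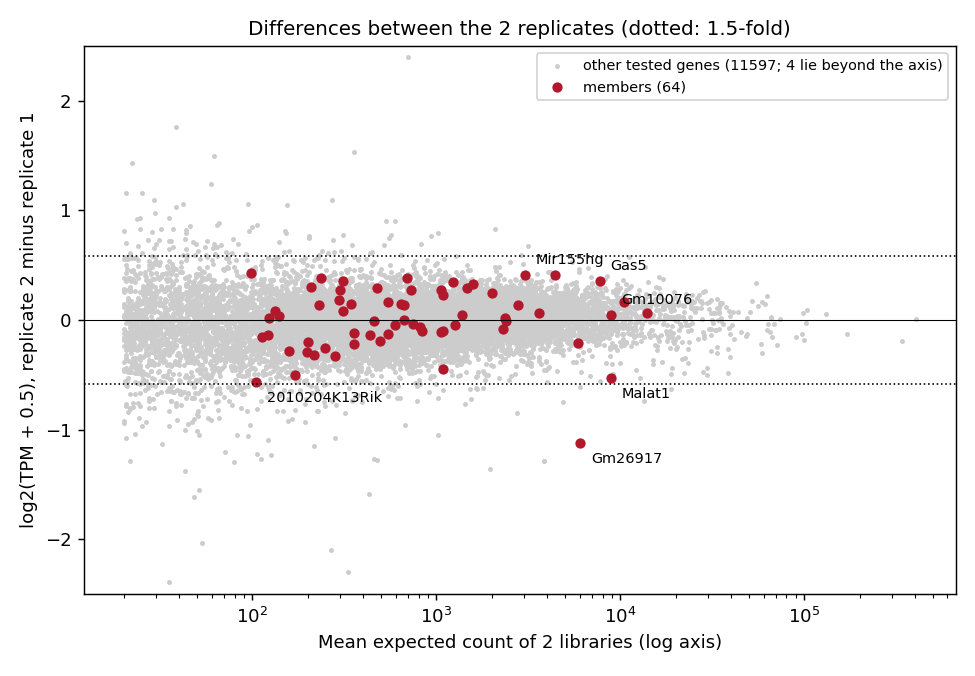
Difference between the replicates as log2(TPM + 0.5), replicate 2 minus replicate 1 (vertical), against the mean expected count of the 2 libraries (horizontal, log axis) for the 64 members in red and the other tested genes in grey; dotted lines mark 1.5-fold. Gm26917, at -1.12, is the member outside the lines.

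Because TPM divides counts by an effective length that can differ between libraries, the ratio of counts and the ratio of TPM were set side by side. For Gm26917 the log2 ratio of counts was -1.01, and for Malat1 it was -0.31. For Mir155hg and Mir17hg it was 0.35 and 0.36, with effective lengths that hardly differed. Snhg20 had 499 and 494 counts but 42.0 and 36.6 TPM, as its effective length was 569 and 673 nt. With counts scaled by library size and TMM factors the differences were -0.94 for Gm26917, -0.24 for Malat1 and 0.22 for Pvt1, which was 0.35 by TPM.

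**Figure D5:**
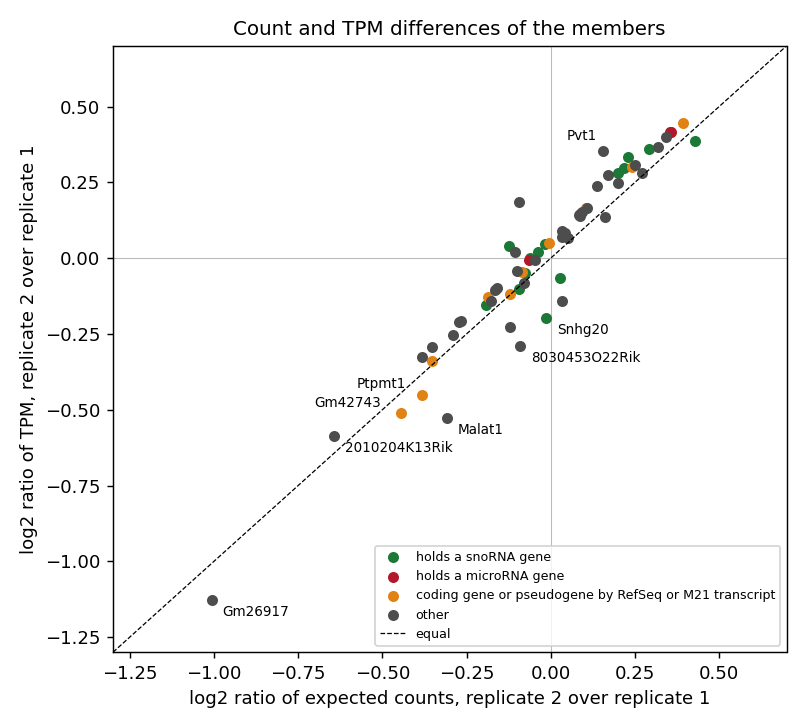
Log2 ratio of expected counts (horizontal) against log2 ratio of TPM (vertical), both replicate 2 over replicate 1, for the 64 members coloured as in the plot of levels; the dashed line marks equal ratios. Malat1, with a count ratio of -0.31, lies below the line, and Gm26917 is lowest on both axes.

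Other lists place these genes among known long non-coding RNAs. Of 13 measured nuclear or architectural RNAs, 4 were members, and Neat1, the scaffold of paraspeckles, was at 6.54 and 8.55 TPM although all 8 paraspeckle proteins were above 10 TPM (median 137 TPM), for example Nono at 298 and 304 TPM. Of 13 measured X-inactivation and imprinted RNAs none was a member. Xist, which silences an X chromosome, was at 0 and 0.01 TPM in this line labelled female. Kcnq1ot1 was at 0.200 and 0.220 TPM, and Airn was highest by TPM at 4.80 and 4.09. By counts Kcnq1ot1 was above Airn, with 350 and 377 against 72 and 66. Of 19 measured RNAs described in immune cells 3 were members, and AW112010 was at 6.12 and 5.46 TPM. Of 16 measured cell-growth RNAs 9 were members.

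At the threshold, the 3 members with the lowest level in a library were 4930509E16Rik at 10.33 and 13.64 TPM, 2810403D21Rik at 10.91 and 11.06 TPM and Gm15987 at 11.20 and 11.15 TPM. Just outside were Dleu2 at 9.83 and 11.41 TPM, A930005H10Rik at 11.77 and 9.68 TPM and Gm37065 at 9.32 and 10.19 TPM. In all, 11 long non-coding genes reached 10 TPM in 1 library only. The counts behind the lowest levels ranged from 128 and 119 for 2810403D21Rik to 470 and 449 for Gm15987, and 62 of 64 had at least 100 counts in both libraries.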

How the data were processed

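RNA of 2 CH12.LX libraries, biological replicates 1 and 2 by the labels, was used; nothing says more of how the cultures were kept apart. Per the file headers and labels, the authors used the mm10 assembly, GENCODE M4 genes and spike-in sequences. Aligner, quantifier and read layout were not given in the sources used here. The authors deposited expected counts per gene and transcript (not normalized, shared reads divided), TPM and FPKM (scaled for length and library size), isoform percent (share of a gene's TPM), and posterior mean counts with their SD. Such division makes near copies uncertain. FPKM served 1 alternative only.

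Types and positions came from GENCODE M21 by identifier without version, names and start sites from RefSeq GRCm38.p6. Members and lists were chosen with earlier results of these data known. By rule the text names the 20 members of highest mean TPM, all holders of snoRNA or microRNA genes, those at the threshold or past 1.5-fold, and list genes needed for description; others (RNAs with known roles, B-cell loci, coding genes in RefSeq, transcripts) were chosen after their values were seen. Levels are mean ± SD over 2 libraries or both values. Differences used a pseudocount of 0.5 and a mean of 20 or more counts; no p-value was computed, as 1 group has no comparison. SD reflects only these 2 samples. Tools were Python 3.11.15, pandas 2.3.3, blastn 2.17.0 and edgeR 4.0.16 (TMM factors only, on rounded expected counts). The fold rule was tested on simulated data. Alternatives were other units, thresholds, pseudocounts, filters, scalings (TMM, median of ratios, ERCC) and each replicate alone.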

Additional observations from a re-analysis of the deposited data

How the results depend on the processing

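Of 39 alternatives, 29 left the value within its spread, numbers of genes within 1.5 times or the number past 1.5-fold unchanged. This is a loose rule. For the share of counts, each replicate alone must lie within the SD of the 2 libraries. For the members' median difference, the spread was that of single genes, 0.20 on the log2 scale. The 64 members became 108 at a threshold of 5 TPM, and 71 or 68 with 1 replicate alone. Their share of counts, 0.465%, was 0.440% without Gm26917 and Gm42418 and 0.367% without the 10 members that RefSeq or M21 transcripts assign elsewhere, an alternative chosen after seeing the data. The median of 39.3 TPM was 38.6 by posterior mean TPM, 40.3 with TPM rescaled, 35.8 without those 10, and 37.6 to 38.4 with 1 replicate left out. Members past 1.5-fold numbered 1 under each pseudocount, filter and other scaling run, but 13 under ERCC scaling, where 7.88% of all genes passed and the members' median difference was 0.35 against 0.30 for all genes. That scaling moves all genes alike. Malat1 stood at -0.53 by TPM, -0.25 by counts with median-of-ratios factors and 0.06 by counts with ERCC scaling. ERCC counts were 78336 and 60634. The cause of these changes was not tested. No paired analysis was possible because the study has 1 group. Fewer than 100 counts in a library lie behind 2 of the 64 members, and 3 have an effective length under 200 nt, where TPM is least certain.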

Other observations

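The largest members by TPM and by counts were not the same genes: AI662270 had the most counts (13831 and 14148) and Cct6a followed (10118 and 10890), while Gm10076, the highest by TPM, had 8872 and 8837. In Gas5 the 1614-nt Gas5-222 held 24.3% and 22.4% of the gene's counts but 10.91% and 10.03% of its TPM. In Snhg20 a 2153-nt transcript held 43.2% and 55.6% of the counts and 12.8% and 19.4% of the TPM. By chromosome, 9 members lie on chromosome 11, 7 on chromosome 2 and 3 on X.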
